A study of Mus musculus with 4 samples.

Results

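Cardiac pericytes were described in 4 single-cell RNA sequencing libraries of mouse hearts. The members were 998 of the 21581 cells kept from 26765 deposited barcodes, or 4.62%. A barcode was kept with at least 1000 unique molecular identifiers (UMIs, each a counted RNA molecule) and at most 20% of them from mitochondrial genes. A kept cell was a member when Kcnj8, Vtn, Abcc9 and Colec11 together reached at least 4 UMIs with at least 2 of these genes detected, Myh11 was at most 2, Dcn plus Col1a1 at most 5, Pecam1 plus Cdh5 at most 2, the 3 C1q genes together at most 3, and Igkc plus Cd79a at most 2. The levels of these genes in the members were therefore set by the choice, and are given as a description only.

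The libraries came from 6-week-old offspring. In 2 libraries the dams had eaten a high-fibre diet, rich in resistant starch, through pregnancy and lactation. In the other 2 libraries the dams had been given the comparison diet, which the sample labels call a control diet and the series text describes as low in resistant starch. All offspring shared a standard chow from weaning at 3 weeks. Hearts were digested with collagenase and dispase, and live, metabolically active cells with a nucleus were sorted, so the shares below are shares of sorted cells. Strain and sex are not given in the labels used here, nor is the number of animals behind a library.

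Pericytes sit on the outer face of capillaries within the basement membrane that they share with the endothelium. They are recruited by endothelial PDGF-B through the receptor Pdgfrb, and Notch3 is a receptor of mural cells, the class that includes both pericytes and vascular smooth muscle. Kcnj8 and Abcc9 encode the pore and the regulatory subunit of the vascular ATP-sensitive potassium channel, which links the metabolic state of the cell to its membrane potential. Rgs5 is a regulator of G-protein signalling and a standard marker of mural cells.

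High-fibre library 1 held 305 members and high-fibre library 2 held 354. Control-diet library 1 held 222 and control-diet library 2 held 117. Over all 4 libraries 1355 cells passed the requirement on the pericyte genes, and 357 of them were removed by the exclusion genes, most often by Dcn and Col1a1 (189 cells), Pecam1 and Cdh5 (105 cells) or Myh11 (84 cells). No doublet caller was run, and these exclusions were the treatment of mixed droplets. All 4 pericyte genes were detected in 880 members (88.2%). At the edge of the rule, 23 members had 4 or 5 UMIs of the 4 genes and held Rgs5 at 7400 CPM (UMIs per 1000000 of their summed UMIs), against 11644 in the 975 members with more. The 45 cells just outside, with 2 or 3 UMIs, held Rgs5 at 3066 CPM.

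The libraries held between 27577599 and 69600492 UMIs, control-diet library 2 the fewest. The members held 4462033 UMIs, from 649542 to 1481759 per library. Their median was 4098 and 4137.5 UMIs per cell in the high-fibre libraries and 4639.5 and 5310 in the control-diet libraries. In control-diet library 2, 702 of 2558 kept cells (27.4%) carried a barcode that also occurred in another library, against 1.38% to 1.98% elsewhere. Only 4 of the 998 members carried such a barcode, and the results that changed without them are given below. Among members with UMIs of Xist or of Y-linked genes but not both, the share with Y-linked UMIs was 68.9% in high-fibre library 1, 33.7% in high-fibre library 2, 28.9% in control-diet library 1 and 31.7% in control-diet library 2. Both sexes were thus present in every library, and high-fibre library 1 stood apart.

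Levels in cell types are given in CPM, UMIs per 1000000 of the summed cells of one type in one library, not divided by gene length because 3′ libraries count one end of each transcript. The mean and standard deviation (SD) are over the 4 libraries. For comparison, 124 smooth muscle cells, 6668 endothelial cells, 6027 fibroblasts and 3161 macrophages were gated by their own markers with at most 1 UMI of the pericyte genes, or at most 3 in smooth muscle. As the cells were selected on expression, no test was made between cell types.

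The label held against the markers that the rule had not used. Rgs5 was at 11352, 11534, 12083 and 11206 CPM in the members of high-fibre libraries 1 and 2 and control-diet libraries 1 and 2, and 99.9% of members had at least 1 UMI. These 4 values lay close together, without an order by diet. Rgs5 was nearly as high in smooth muscle (8600 ± 862, SD, n = 4 libraries), so it marks mural cells rather than pericytes alone. It was at 111 in endothelial cells, 7.48 in fibroblasts and 7.88 in macrophages. Steap4, a metalloreductase, was at 1117 ± 63.5 (SD, n = 4) in pericytes and 57.5 in smooth muscle. Higd1b, a small protein related to a hypoxia-induced mitochondrial family, was at 973 ± 77.5 (SD, n = 4) in pericytes and 441 in smooth muscle. Pdgfrb was at 1789 ± 48.3 (SD, n = 4), against 390 in smooth muscle and 74.9 in fibroblasts, and 99.4% of members had a UMI of it. In cells thinned to 2000 UMIs, which left out 99 pericytes and no smooth muscle cell, Pdgfrb was detected in 95.4% of pericytes and 50.8% of smooth muscle cells.

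**Figure D1:**
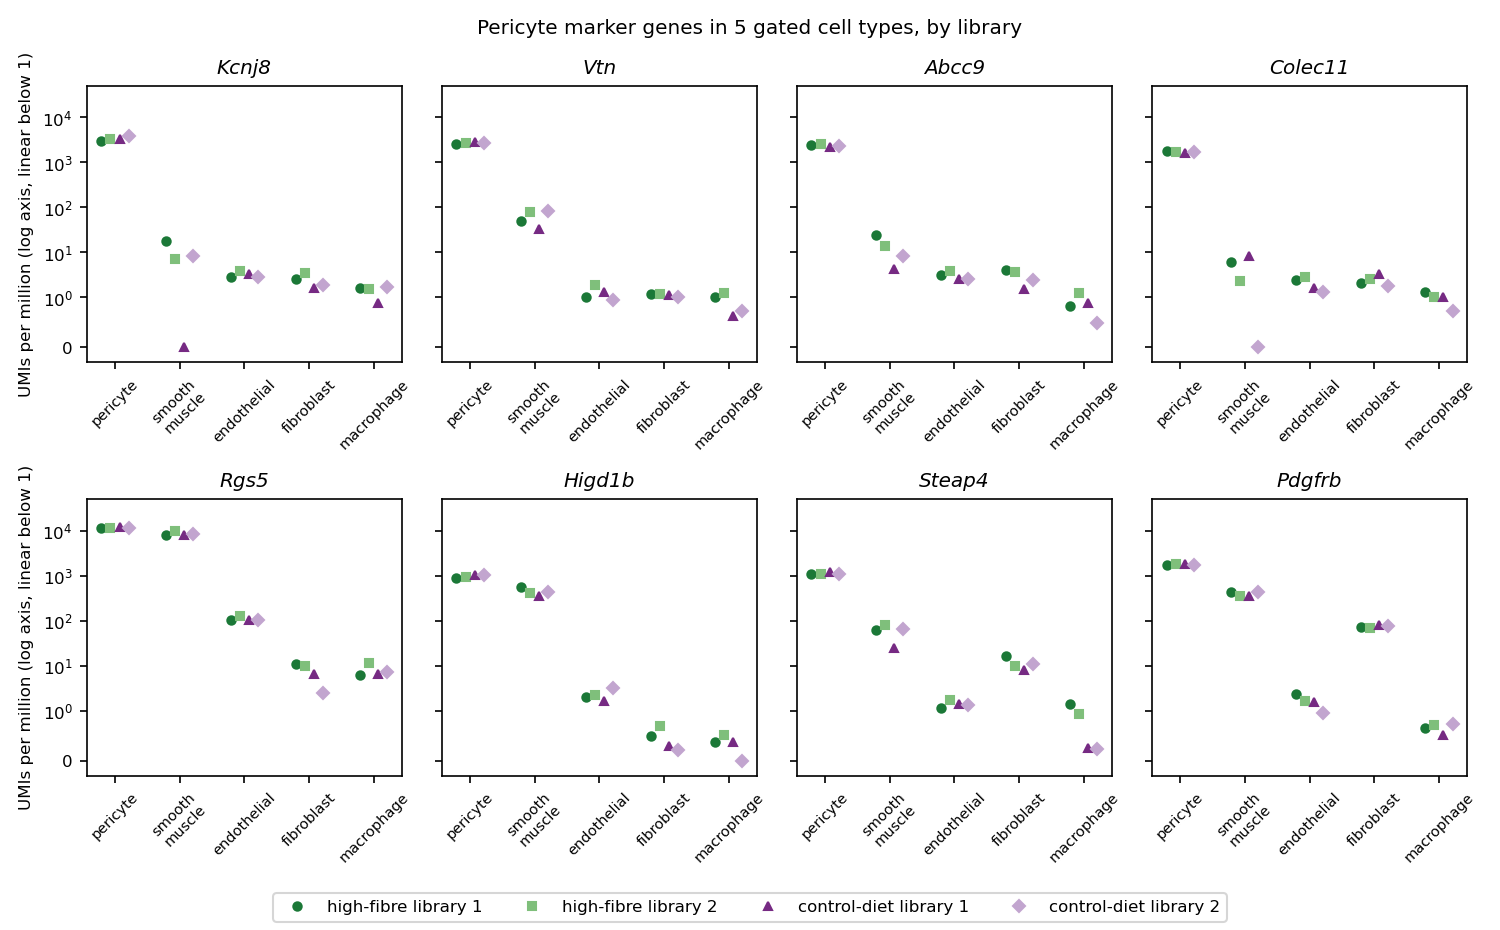
CPM (vertical axis, logarithmic and linear below 1) of 8 genes in 5 gated cell types, 1 point for each of the 4 libraries. The upper 4 genes chose the pericytes, and their separation is a description of that choice; Rgs5 was close to its pericyte level in smooth muscle, while Steap4 and Pdgfrb were lower there.

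Of the genes used by the rule, Kcnj8 was at 3386 ± 336 (SD, n = 4), Vtn, the matrix protein vitronectin, at 2708 ± 112, Abcc9 at 2395 ± 150 and Colec11, a soluble collectin, at 1708 ± 92.7. The counterparts Kcnj11 and Abcc8, which form the ATP-sensitive channel of other tissues, had no UMI in any of the 998 members. A count of 0 allows a level of up to 0.672 CPM and a share of up to 0.301% of cells with a UMI, for counting error only.

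Markers of the other cell types that the sort could hold were present in part. The 14 endothelial markers summed to 1778 to 2718 CPM by library in pericytes, mostly Fabp4, against 41162 in endothelial cells, and none was at 0. The 12 fibroblast markers summed to 1918 to 2189 CPM, among them Col3a1 at 654 and Col1a2 at 388, against 63447 in fibroblasts, and none was at 0. The 9 smooth muscle markers summed to 801 to 981 CPM by library in pericytes, against 31542 in smooth muscle. Defining markers were lower. Of the smooth muscle list, Cnn1 and Actg2 had no UMI, and Acta2 was at 258 against 14048 in smooth muscle. Pdgfra, which defines fibroblasts, was at 1.61 against 421 in fibroblasts. Pecam1, an exclusion gene, was at 6.90, and Kdr, the endothelial VEGF receptor, at 6.64 against 1070.5 in endothelial cells. Csf1r, Cd68 and Adgre1, which define macrophages, were at 4.01, 3.32 and 1.81. The cardiomyocyte gene Myh6 was at 1.95.

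The 30 genes with the largest ratio of the pericyte level to the next highest cell type most often had smooth muscle as that next type. Ifitm1, an interferon-inducible membrane protein, was at 575 CPM and 18.4 times its level in fibroblasts (with 5 CPM added to both). Art3, an ADP-ribosyltransferase family member, was at 1197 and 9.41 times its endothelial level, and P2ry14, the receptor for UDP-glucose, at 399 and 9.04 times its smooth muscle level. Slc12a2, the sodium-potassium-chloride cotransporter, was at 547 and 8.74 times its endothelial level. Agtr1a, the angiotensin II receptor, was at 57.3 with no UMI in the smooth muscle cells and 2.73 in fibroblasts.

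Genes usually named for other cell types were also in this group. Sele, the selectin that activated endothelium displays, was at 67.5 and 40.5 CPM in the high-fibre and 50.2 and 72.4 in the control-diet libraries. It was at 1.01 in endothelial cells, and 145 of the 998 pericytes had a UMI of it against 0.21% of endothelial cells. Trac, the constant region of the T cell receptor alpha chain, was not among the 30 but was at 50 ± 4.80 (SD, n = 4) in pericytes and 70.1 in smooth muscle, against 1.93 in endothelial cells and 1.30 in macrophages. A Trac UMI was found in 184 pericytes, while Cd3e, which T cells need to display the receptor, was found in 2. Over the 5 gated types the levels most like those of Rgs5 were those of Rbmx2, Gm10687, Rbm19, Pde4c, Bcar3, Scn3a, Ccdc174, B3gnt2, Cobll1 and Gm45184. Their correlations with Rgs5 over 5 points were between 0.994 and 0.999, and their levels in pericytes ran from 3.12 for Gm45184 to 214 for Cobll1.

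Mitochondrial subunits with paired genes were used differently in the mural cells. Ndufa4, a subunit of respiratory complex IV, was at 11.8, 22.3, 12.3 and 4.62 CPM in the pericytes of high-fibre libraries 1 and 2 and control-diet libraries 1 and 2. It was at 491 in smooth muscle, 530 in endothelial cells, 342 in fibroblasts and 330 in macrophages, so pericytes alone among the 5 types had almost none. Its relative Ndufa4l2, known as a hypoxia-inducible gene, was at 2378, 2837, 2596 and 2626 in pericytes, 1290 in smooth muscle, 137 in fibroblasts and 7.16 in endothelial cells. Cox4i2, the hypoxia-associated form of another complex IV subunit, was at 1847 ± 103 (SD, n = 4) in pericytes and 896 in smooth muscle, against 14.7 in endothelial cells. The common form Cox4i1 did not show the low level of Ndufa4: it was at 910 in pericytes, 1473 in smooth muscle and 767 in endothelial cells. Smooth muscle thus carried both members of each pair, and pericytes both Cox4 forms but chiefly the one Ndufa4 form.

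**Figure D2:**
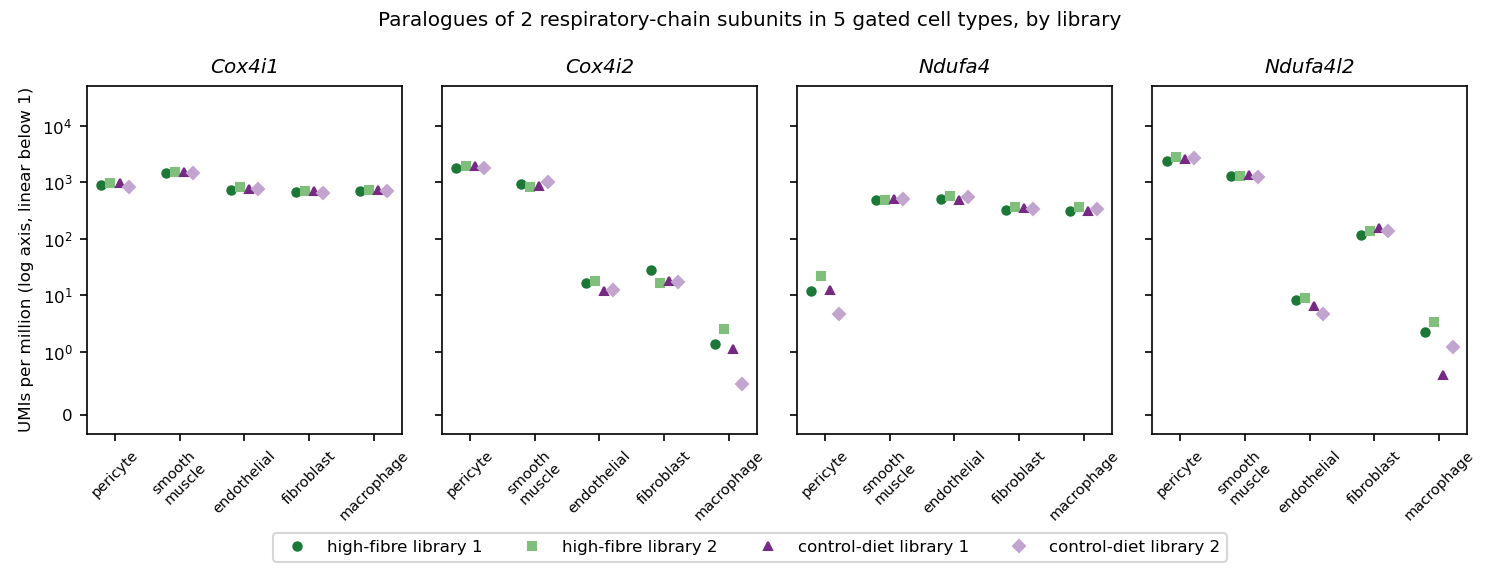
CPM (vertical axis, logarithmic and linear below 1) of 4 respiratory-chain genes in 5 gated cell types, 1 point per library. Ndufa4 lay between 4.62 and 22.3 in the pericyte libraries, and Ndufa4l2 between 2378 and 2837.

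Signalling genes were read by role. Among receptors, Notch3 was at 711 ± 32.1 (SD, n = 4) in pericytes and 636 in smooth muscle. Its targets Heyl and Hes1 were at 396 and 451 in pericytes, and the ligand Jag1 at 216. The PDGF-B ligand gene Pdgfb was at 7.32 in pericytes and 280 in endothelial cells. Gucy1a1 and Gucy1b1, the subunits of the nitric oxide receptor guanylyl cyclase, were at 1037 and 927 in pericytes and 1438 and 838 in smooth muscle. S1pr3, a receptor for sphingosine 1-phosphate, was at 609, and the endothelin receptor Ednra at 250. Angpt1, the angiopoietin that mural cells are often said to supply, was found at 1.06 in pericytes and 26.3 in fibroblasts. Among receptors for short-chain fatty acids, the products of bacterial fermentation of fibre, Ffar2 had UMIs in 17 pericytes and in no gated smooth muscle, endothelial, fibroblast or macrophage cell. The 4603 kept cells without a gate are not part of this comparison, so Ffar2 was not shown to be particular to pericytes. Its level in pericytes was 3.92 and 4.05 in the high-fibre and 6.63 and 1.54 CPM in the control-diet libraries. This was too few for the diet test, and Ffar3 had no UMI in pericytes. The related olfactory receptor gene Olfr78 was at 7.99 in pericytes and 209 in smooth muscle.

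Matrix and contraction genes separated the mural types further. Sparc, Mgp and Col4a1 were matrix genes of pericytes at 4373, 4487 and 1508 CPM. In smooth muscle they were at 1631, 713 and 264. Itga1, the integrin subunit that binds collagen IV, was at 1142 in pericytes and 258 in smooth muscle. The actin-binding Tpm2 was at 753 in pericytes against 5979 in smooth muscle, and Cald1 was at 1560 against 2890.

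Sub-clusters within the 998 members were obtained without Kcnj8, Vtn, Abcc9, Colec11, Xist, the Y-linked genes Ddx3y, Eif2s3y, Kdm5d and Uty, and mitochondrial genes. The exclusion genes of the rule and the X-linked Tsix were not left out. The groups were left unnamed because they and their genes come from the same cells. The largest had 272 cells led by Hsd11b1, Ckb and Igfbp5, and the second had 210 led by Golga4, Hmgb2 and Hivep2. A group of 151 cells was led by Cd36, Tagln, Cav1 and Mustn1. A group of 146 was led by the immediate early genes Fosb, Fos, Egr1 and Jun, followed by Hspa1b and Hspa1a. A group of 114 was led by the chemokine genes Ccl2 and Cxcl1, with Sele and Nfkbia. A group of 56 had a median of only 1672 UMIs, and Tsix, haemoglobin and the exclusion gene C1qa were among its leading genes. A group of 33 was led by Nrip2, Acta2, Tagln and Olfr78, at 388, 3253, 1840 and 264 CPM, against 1.62, 169, 105 and 1.15 in the other members. A group of 16 was led by interferon-stimulated genes, with Iigp1, Ifit3 and Isg15 at 665, 677 and 855 CPM.

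All 8 groups were found in all 4 libraries. The Fos-led group made up 19.0% and 13.3% of the members in the high-fibre libraries and 13.1% and 10.3% in the control-diet libraries. The Ccl2-led group made up 10.2% and 10.5% against 11.3% and 17.9%, and the Acta2-led group 2.30% and 4.80% against 2.25% and 3.42%. The low-UMI group with haemoglobin and C1qa made up 4.59% and 9.04% against 2.25% and 4.27%, higher in both high-fibre libraries. The interferon-led group made up 0.656% and 1.98% against 0.901% and 4.27%. No group's shares were tested between diets, because the genes that define a group also entered the diet test.

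**Figure D3:**
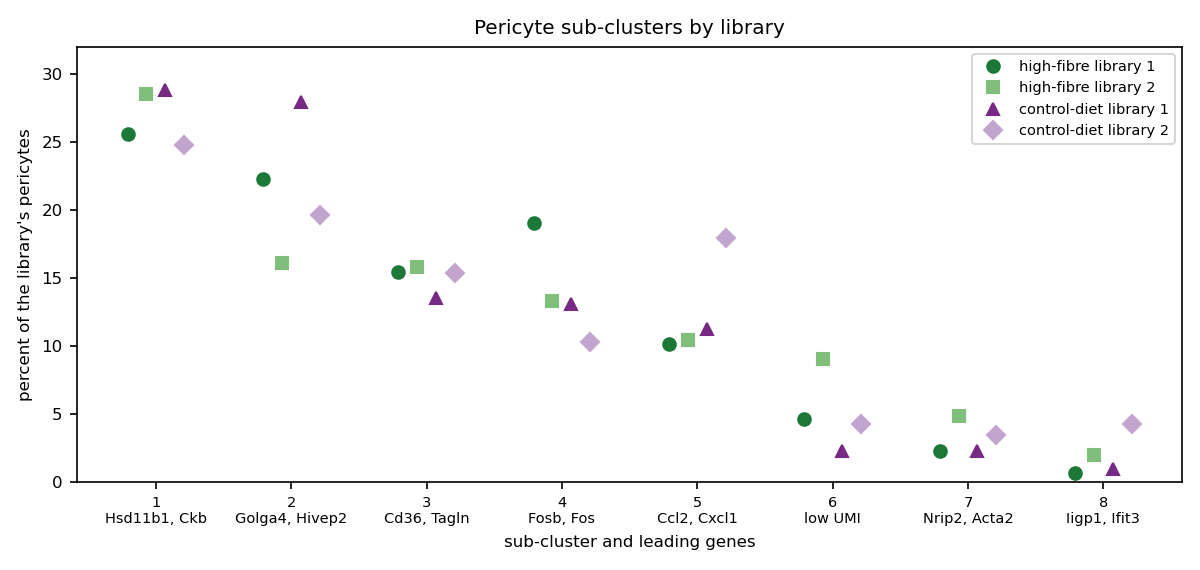
Percent of the pericytes of each library (vertical axis) in 8 sub-clusters (horizontal axis, with leading genes), 1 point per library. The low-UMI sub-cluster 6 lay between 2.25% and 9.04%, and the Fos-led sub-cluster 4 between 10.3% and 19.0%.

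The first diet comparison was of abundance. Pericytes made up 5.10% (95% exact binomial interval 4.56% to 5.69%) of kept cells in high-fibre library 1 and 4.80% (4.32% to 5.31%) in high-fibre library 2. They made up 3.92% (3.43% to 4.46%) in control-diet library 1 and 4.57% (3.8% to 5.46%) in control-diet library 2. Both high-fibre values were above both control-diet values, at 4.95% ± 0.215 against 4.25% ± 0.462 (SD, n = 2 libraries each), and a two-sided exact permutation test gave p = 0.33, the smallest that 2 against 2 libraries can give. With kept cells of shared barcodes left out, the shares were 5.20% and 4.88% against 3.96% and 6.2%, and the direction was lost.

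The second diet comparison was of genes, on the summed UMIs of the pericytes of each library. It asked which genes differed in offspring of high-fibre dams after weeks on a common chow. Levels in this comparison are normalised CPM (scaled by the trimmed mean of M values, TMM), and fold changes are log2 of high-fibre over control-diet with their standard error (SE). By edgeR's quasi-likelihood test with Benjamini-Hochberg adjustment, 36 of 9251 genes passed an adjusted p of 0.05, or 0.389%. Of these, 15 were higher in the high-fibre libraries (0.162%) and 21 lower (0.227%). Without adjustment 593 genes had p below 0.05. DESeq2 called 7 (0.0757%: Apoe, Lyz2, Fabp4, Cenpf, Top2a, Mki67 and Prc1), and edgeR with the repeat number as a block called 34 (0.368%). In 34.9% of all tested genes the 2 groups did not overlap. With 1 library left out at a time, Apoe, Lyz2, Cd74, Tyrobp, Hspa1b, Cenpf, Top2a, Stmn1 and Ube2c stayed called each time. The 2 libraries of a group may differ technically or by animal, and the p-values measure only that spread.

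No pericyte identity gene was called between diets. Rgs5 had a log2 fold of 0.00 (SE 0.12) and Pdgfrb of 0.03 (SE 0.12), and their groups overlapped. Of 32 tested pericyte and mural genes outside the rule, 24 had a fold above 0 and none was called in either direction. In 9 of them both high-fibre libraries lay higher and in 5 both lay lower, against 17.4% and 17.5% of all tested genes. Their median log2 fold was 0.06, against -0.00 over all 9251 genes, of which 49.6% were above 0. The oxidative phosphorylation list had 26 of 52 genes above 0, a median of -0.00 and no call, and Ndufa4l2 and Cox4i2 had log2 folds of 0.03 and 0.05. The contractile list had 7 of 17 above 0, ion channels and pumps 11 of 14, and vasoactive receptors 16 of 23, with no call in any of them. The smallest p among vasoactive receptors was that of Ednrb, the endothelin B receptor, at 136 and 151 against 291 and 170 normalised CPM, with a log2 fold of -0.72 (SE 0.18) and adjusted p = 0.0821. Timp3, an inhibitor of matrix proteases, was at 244 and 207 against 161 and 129, with adjusted p = 0.0587.

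Apoe, the lipid carrier apolipoprotein E, was the called gene that held most widely. It was at 206 and 190 normalised CPM in the high-fibre pericytes and 78.3 and 75.1 in the control-diet pericytes. The groups did not overlap, with a log2 fold of 1.36 (SE 0.17) and an edgeR adjusted p = 2.43e-07. It was called in 18 of 18 alternative settings, with log2 folds of 1.30 to 1.42 when 1 library at a time was left out, 1.35 among Xist-only members and 1.71 among members with Y-linked UMIs only. Apoe UMIs were found in 131 of 305 and 195 of 354 high-fibre pericytes, and in 66 of 222 and 40 of 117 control-diet pericytes. In high-fibre library 1 a single cell held 80 of the 253 UMIs, while in the other libraries no cell held more than 4. The closeness of the 2 high-fibre values depends on that cell, and no setting was made to leave it out alone.

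Some genes of macrophages and antigen-presenting cells were called higher with Apoe. Lyz2, the macrophage lysozyme, was at 118 and 119 against 35.3 and 52.1, a log2 fold of 1.49 (SE 0.20, edgeR adjusted p = 1.68e-06). Cd74, which escorts MHC class II molecules to their peptide, was at 65.0 and 65.4 against 23.9 and 24.5 (log2 fold 1.43). Tyrobp, an adaptor of myeloid receptors, was at 38.2 and 38.9 against 8.60 and 3.07 (2.56), and H2-Aa, an MHC class II chain, at 19.5 and 28.6 against 2.87 and 7.66 (2.33). Ptprc and Cd52, surface genes of leukocytes, had log2 folds of 2.18 and 1.97. Few cells carried these last genes: in high-fibre library 1, 27 Ptprc UMIs came from 7 cells. Single cells also weighed on other genes. In high-fibre library 1, 1 cell held 54 of 145 Lyz2 UMIs and 1 cell held 21 of 47 Tyrobp UMIs. In high-fibre library 2, 1 cell held 13 of 57 Tyrobp UMIs and 1 cell held 19 of 43 Cd52 UMIs, while no cell held more than 3 of 175 Lyz2 UMIs. Cd74 was more evenly spread, with at most 6 of 80 and 3 of 96 UMIs in 1 cell of these libraries. By edgeR with a library left out, Cd52 was not called without control-diet library 2 (1.39), H2-Aa without high-fibre library 2 (2.01) or control-diet library 1 (1.65), and Ptprc without high-fibre library 1 (2.16), high-fibre library 2 (2.22) or control-diet library 2 (1.48). Of 3 tested macrophage markers 2 were called higher, and of 5 tested MHC class II genes 2 were called higher, against 0.162% of all tested genes. Tyrobp, H2-Aa and Ptprc passed the count filter only through the high-fibre libraries, where they are high. The counts were thus tilted in advance and are no support for a shift of these lists. The median log2 fold of the class II genes was 1.03. H2-DMa, which helps load peptide onto class II, lay the other way at 9.75 and 8.86 against 15.3 and 13.8 and was not called (edgeR adjusted p = 0.932). A stricter set held only members with no UMI of any exclusion gene, the C1q genes included. It left out, among others, 571 of the 998 members that had a UMI of Dcn or Col1a1, and 5581 genes were tested in it. No gene of either list was called there: Lyz2 was 0.92, Cd74 1.19 and Tyrobp 2.38 on the log2 scale, and H2-Aa was too low to be tested. A lost call in this smaller set cannot be told apart from the loss of cells. Apoe stayed called there at 1.28 (edgeR adjusted p = 0.035).

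Levels of macrophage RNA moved in the same direction in the libraries as a whole. Apoe, at 24625 CPM in macrophages, was at 6719 and 7078 over all kept cells of the high-fibre libraries and 5178 and 5860 in the control-diet libraries. Macrophages made up 16.3% and 15.8% of kept cells against 13.3% and 10.6%. The summed level of the 12 macrophage markers in pericytes was 257 and 337 against 130 and 143 CPM, none of the 12 at 0, while it was 41229 in macrophages themselves. Within macrophages Apoe had a log2 fold of -0.17, within endothelial cells and fibroblasts 0.32 and 0.44, and within smooth muscle 0.85, none of them called. The myeloid and class II genes were called higher in other cell types too: by edgeR, Tyrobp in smooth muscle (3.83, adjusted p = 0.00109) and endothelial cells (1.64, adjusted p = 0.000392), and in endothelial cells also Cd74 (1.30, adjusted p = 0.000282) and H2-Aa (1.21, adjusted p = 0.0173). In macrophages themselves these 3 genes had log2 folds between -0.07 and 0.01. The smooth muscle call rested on few cells, 20 and 55 in the high-fibre and 27 and 22 in the control-diet libraries. Tyrobp was at 110 and 85.6 against 8.46 and 4.07 CPM in them. Haemoglobin and other erythroid genes also moved with the groups in pericytes, at a summed 115 and 72.9 against 10.4 and 35.4 CPM, and none of the 5 listed was at 0. Of these, 3 of 3 tested lay higher in both high-fibre libraries, against 17.4% of all tested genes, with no call and a median log2 fold of 2.09. Only 3 of the 5 reached the count filter, which a gene can pass through a single group, so this count is no support. The part of free or co-captured RNA in the pericyte result was not tested further. The difference of the Apoe log2 fold between pericytes and endothelial cells was 1.03 (SE 0.17, limma adjusted p = 0.0191), 1 of 11 calls among 8963 genes (0.123%). Against fibroblasts it was 0.91 (SE 0.15, limma adjusted p = 0.0238), 1 of 10 calls among 9153 genes (0.109%), of which Kcnj8 is a gene of the member rule and no result. Against smooth muscle 1 of 3510 genes was called (0.0285%), and it was not Apoe. The Apoe difference there was 0.69 (SE 0.39, limma adjusted p = 0.99), so a rise particular to pericytes among mural cells was not shown.

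Fabp4, the fatty acid binding protein abundant in cardiac endothelium, was at 2309 and 1828 in high-fibre and 1413 and 1321 in control-diet pericytes. The groups did not overlap, with a log2 fold of 0.60 (SE 0.12) and an edgeR adjusted p = 0.00537. In endothelial cells, where it was at 24345 CPM, the fold was 0.11. Over all kept cells Fabp4 was at 4856 and 5510 against 5245 and 8345, not in the direction seen in pericytes. The fold was 0.21 (adjusted p = 0.966) among Xist-only pericytes and 1.15 (adjusted p = 0.00305) among those with Y-linked UMIs only, and without high-fibre library 1 it was 0.42 and not called. A related gene of fatty acid uptake, Cd36, was at 239 and 237 against 137 and 195 (edgeR adjusted p = 0.128). Ech1, an isomerase of fatty acid oxidation, was called at 287 and 250 against 137 and 185, but not without high-fibre library 1 (0.66) or control-diet library 1 (0.53).

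Inducible heat shock chaperones, which refold proteins under stress, had folds above 0 for 16 of 16 tested genes, with a median log2 fold of 0.71. For 7 of the 16 both high-fibre libraries lay above both control-diet libraries, against 17.4% of all tested genes. Called were Hspa1b, Dnajb1 and Dnajb4. Hspa1b, an inducible HSP70, was at 1269 and 870 against 505 and 570, a log2 fold of 0.99 (SE 0.14, edgeR adjusted p = 5.69e-05). Its near-identical neighbour Hspa1a, with which reads may be exchanged, was at 1190 and 681 against 479.5 and 504 and was not called (adjusted p = 0.608). Dnajb1, an HSP40 co-chaperone, was at 165 and 104 against 65.0 and 61.3, and Dnajb4, another, at 171 and 117 against 91.7 and 76.6. In each, high-fibre library 1 was the highest. Without that library the median of the list was 0.13, Hspa1b stayed called at 0.70 (edgeR adjusted p = 0.005) and Dnajb1 and Dnajb4 were 0.71 and 0.46 and not called; Dnajb4 was also not called without control-diet library 2 (0.64). By DESeq2 none of the 16 was called, with an adjusted p of 0.277 for Hspa1b. The list had medians of 0.57 in endothelial cells, 0.36 in fibroblasts and 0.63 in macrophages, and none of its genes was called for a diet fold in pericytes different from that in endothelial cells or fibroblasts.

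For 2 of the 3 called chaperone genes the 250 bases before a RefSeq start site are shown, searched for GAANNTTC, the paired GAA units that heat shock factor binds. The pattern reads the same on both strands and occurs in 2199 of 32851 mouse promoters of that length (6.69%). Hspa1b lies on the minus strand of chromosome 17 (GRCm38.p6, chr17:34959239-34959488), and Dnajb1 on the plus strand of chromosome 8 (chr8:83607925-83608174). Capitals mark the match, which is in Hspa1b, with none in this window of Dnajb1. Of the 5 windows searched for the 3 called genes, those of the other Dnajb1 start site and of both Dnajb4 start sites also held no match. Matching letters describe the sequence and were not tested for binding.
Hspa1b: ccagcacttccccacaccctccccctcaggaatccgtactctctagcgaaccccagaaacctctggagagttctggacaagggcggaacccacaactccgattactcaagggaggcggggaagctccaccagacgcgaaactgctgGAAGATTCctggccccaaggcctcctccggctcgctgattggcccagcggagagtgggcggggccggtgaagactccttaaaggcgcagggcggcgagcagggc
Dnajb1: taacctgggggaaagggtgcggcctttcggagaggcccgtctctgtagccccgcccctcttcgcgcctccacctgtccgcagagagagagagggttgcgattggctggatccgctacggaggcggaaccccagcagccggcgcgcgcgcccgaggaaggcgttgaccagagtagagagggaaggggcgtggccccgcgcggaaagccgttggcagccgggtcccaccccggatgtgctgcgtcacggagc

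Immediate early genes, the transcription factors and regulators that respond first to stimulation, had folds above 0 for 18 of 18 tested genes, with a median log2 fold of 0.47. Fos and Btg2 were called. Fos was at 384 and 234 against 170 and 158 (log2 fold 0.90, SE 0.19, edgeR adjusted p = 0.0402), and Btg2, which restrains proliferation, at 362 and 305 against 167 and 248. Jun was at 973 and 629 against 506 and 412 and was not called (adjusted p = 0.0899). With the 4 dividing members described below left out, the median was 0.43 and neither Fos nor Btg2 was called. Neither was called without high-fibre library 1 (0.50 and 0.58), nor Btg2 without control-diet library 1 (0.42). The list had a median of -0.03 in endothelial cells, 0.16 in fibroblasts and 0.10 in macrophages. Cyr61, a secreted matrix protein of the same early response, was called at 226 and 192 against 125 and 139, but not without high-fibre library 1 (0.54) or control-diet library 1 (0.57).

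**Figure D4:**
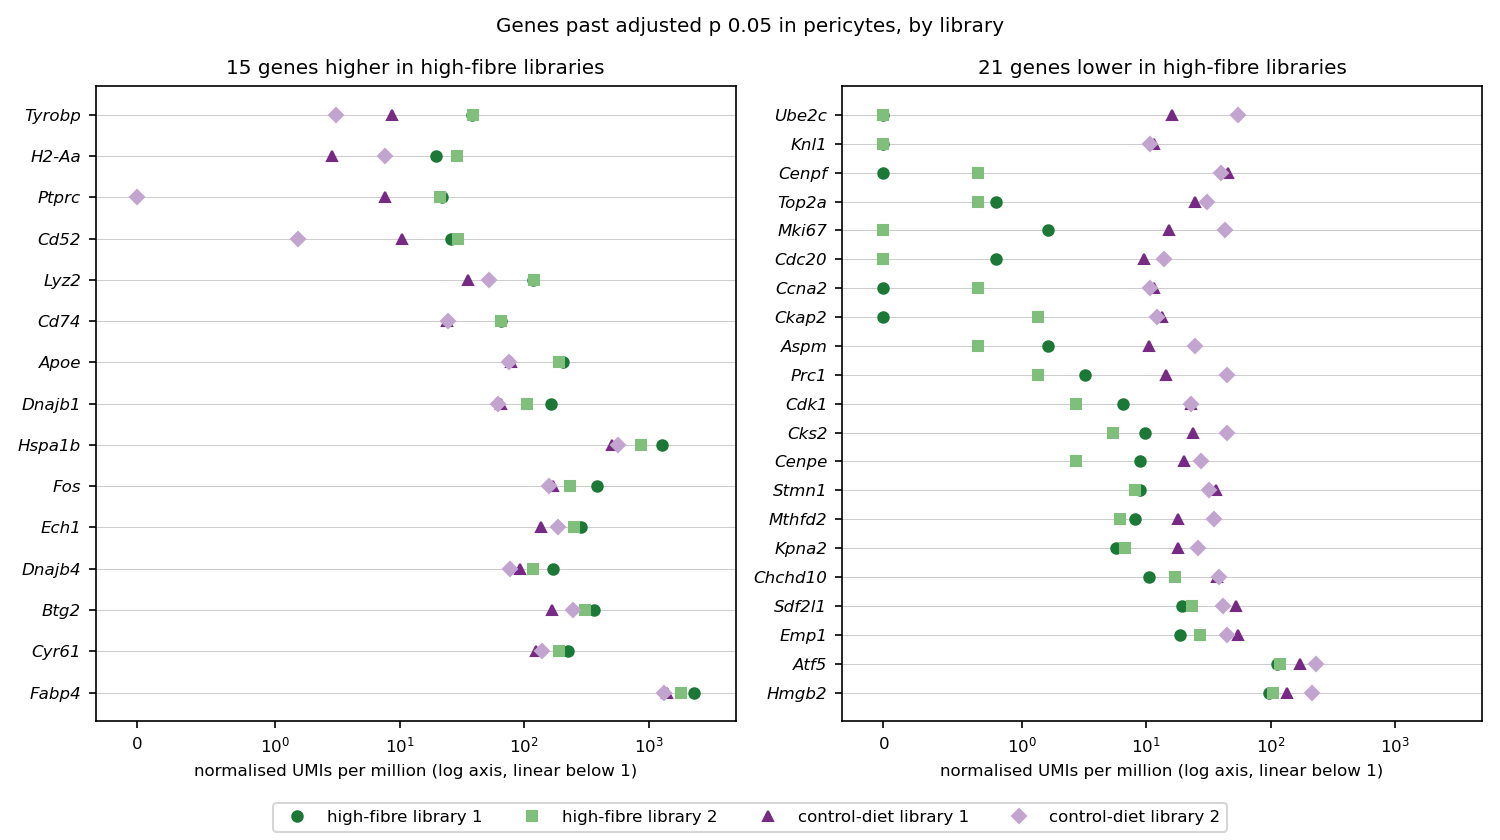
Normalised CPM (horizontal axis, logarithmic and linear below 1) of the 15 genes called higher and the 21 called lower in high-fibre pericytes, 1 point per library. Cenpf, Top2a and Mki67 in the right panel lie between 0 and 1.63 in the high-fibre libraries, and Apoe in the left panel lies at 190 and 206 against 75.1 and 78.3.

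Genes of the endoplasmic reticulum (ER) stress response lay the other way. Of 19 tested, 3 had folds above 0, and the median log2 fold was -0.34. In 14 of the 19 both high-fibre libraries lay below both control-diet libraries, against 17.5% of all tested genes. Sdf2l1, part of an ER chaperone complex, was called lower at 19.5 and 23.2 against 52.5 and 41.4, a log2 fold of -1.15 (SE 0.27, edgeR adjusted p = 0.0259). Single cells contributed unevenly, since 22 of the 55 Sdf2l1 UMIs in control-diet library 1 came from 1 cell. It was not called without high-fibre library 1 (-1.04) or without control-diet library 1 (-0.95). Creld2 was at 29.3 and 34.1 against 54.4 and 55.2 (adjusted p = 0.236). The chaperones Hspa5, at 753 and 614 against 1043 and 794, and Calr, at 312 and 316 against 509 and 385, were not called (adjusted p = 0.232 and 0.0821). The list kept its sign without each library in turn, with medians of -0.39 to -0.30. Sdf2l1 was also lower in fibroblasts, with a log2 fold of -1 (edgeR adjusted p = 0.00926). Atf5, a transcription factor of stress responses, was called lower at 112 and 120 against 171 and 233, but not without the 4 dividing members (-0.53), without high-fibre library 1 (-0.73) or without control-diet library 2 (-0.56).

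**Figure D5:**
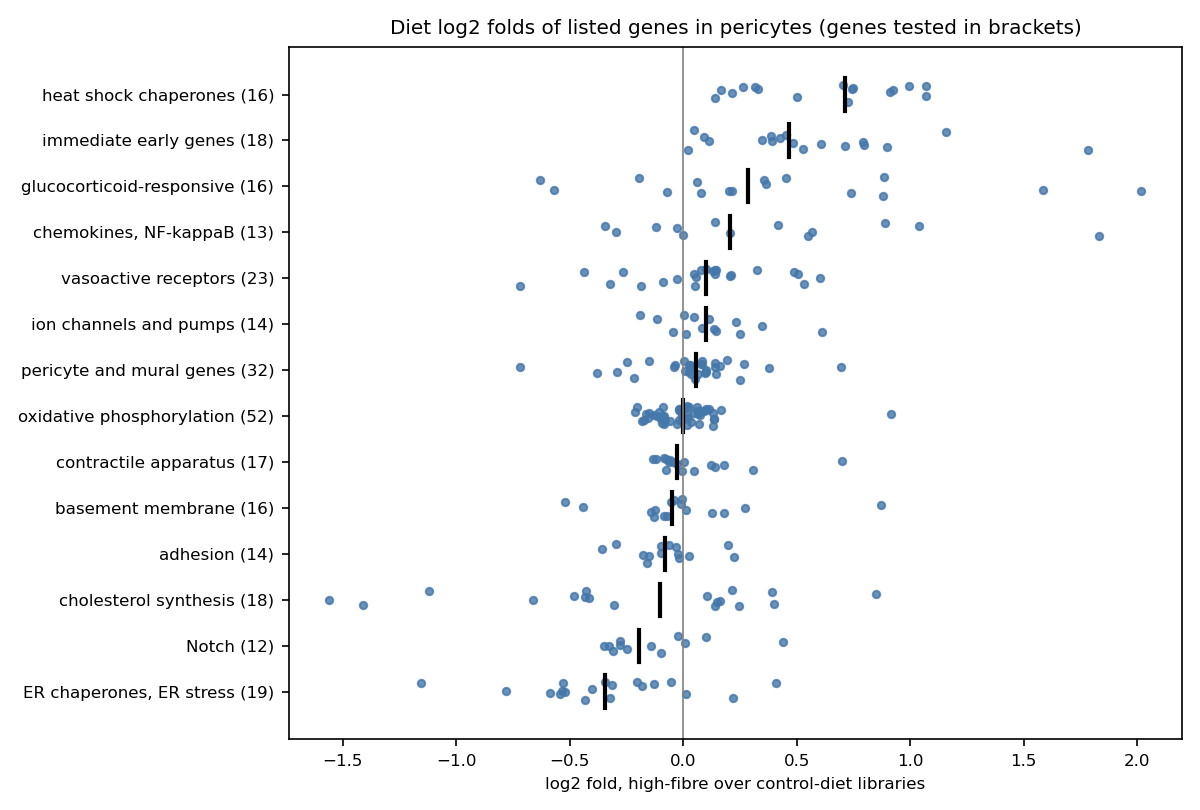
Log2 fold of high-fibre over control-diet libraries (horizontal axis) for the tested genes of 14 lists in pericytes, 1 point per gene, with a bar at the median. Heat shock and immediate early genes had medians of 0.71 and 0.47, and the ER list -0.34, while the pericyte list was at 0.06.

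Cell division genes made up much of the lower side and rested on 4 cells. Of 14 tested division genes, 9 were called lower, against 0.227% of all tested genes, and 0 had a fold above 0. Genes near 0 in the high-fibre libraries, among them Cenpf, Top2a and Mki67, passed the count filter only through the control-diet libraries. For such genes the filter fixed the direction in advance, so these counts are a description and no support for a diet difference. Cenpf, a kinetochore protein, was at 0 and 0.682 in the high-fibre and 45.8 and 39.9 in the control-diet pericytes. Top2a, the topoisomerase of dividing cells, was at 0.813 and 0.682 against 24.8 and 30.7, and Mki67, the proliferation marker, at 1.63 and 0 against 15.3 and 42.9, the last not called without control-diet library 2 (-4.19). These levels came from few cells: 40 of 48 Cenpf UMIs in control-diet library 1 and all 26 in control-diet library 2 were in 1 cell each. Counting as dividing a member with at least 3 of 12 division genes, a definition chosen after these values were seen, gave 3 of 222 in control-diet library 1 and 1 of 117 in control-diet library 2. In high-fibre libraries 1 and 2 it gave 0 of 305 and 0 of 354, with exact binomial upper limits of 1.20% and 1.04%. The control-diet shares, with exact binomial intervals, were 1.35% (0.28% to 3.90%) and 0.855% (0.022% to 4.67%). These intervals overlap, but they treat cells as the units, cover counting error only and are no test between diets. Whether the share of dividing pericytes differed between diets was not tested.

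These 4 cells were not alike. One of control-diet library 1 had 156 UMIs of the 12 division genes among 10046, with 60 of Rgs5 and 39 of the rule's genes. Another held 5 Ptprc UMIs beside 179 of Rgs5. The cell of control-diet library 2 had 23428 UMIs but only 4 of the rule's genes and 8 of Rgs5, and its barcode also occurred in another library. With the 4 members of shared barcodes left out in their place, a set that includes this cell, 14 genes were called, again no division gene among the 8 still tested. Fos (0.87, edgeR adjusted p = 0.0996), Dnajb4 (0.71, adjusted p = 0.145), Ptprc (2.15, adjusted p = 0.0838), Emp1 (-1.05, adjusted p = 0.145) and Atf5 (-0.52, adjusted p = 0.351) were among those no longer called, and Apoe, Lyz2, Cd74, Tyrobp, Hspa1b, Fabp4, Chchd10 and Sdf2l1 among those that were. With the 4 dividing members left out, 13 of 9211 genes were called (0.141%). Sdf2l1 was the only one lower, and Apoe, Lyz2, Cd74, Cd52, H2-Aa, Tyrobp, Ptprc, Hspa1b, Dnajb1, Fabp4, Cyr61 and Ech1 were higher. With the pericyte requirement raised to at least 6 UMIs, 8 genes were called, all higher.

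Further genes on the lower side were Chchd10, a protein of the mitochondrial intermembrane space, at 10.6 and 17.0 against 37.3 and 38.3, and Emp1, a membrane protein, at 18.7 and 27.3 against 54.4 and 44.4. Their groups did not overlap, but Chchd10 had an adjusted p of 0.0573 and Emp1 of 0.163 by edgeR without the 4 dividing members. Neither was called without high-fibre library 1 (-1.14 and -0.88) or without control-diet library 1 (-1.45 and -0.94). Chchd10 was at 439 CPM in smooth muscle, so it is a gene that the related mural type carries at a far higher level. Cholesterol synthesis genes, which the ER-membrane sterol sensor controls, had 9 of 18 folds above 0 and no call, although Cyp51 was at 10.6 and 8.18 against 22 and 29.1 (edgeR adjusted p = 0.0881). In 9 of the 18 both high-fibre libraries lay lower and in 3 both lay higher, against 17.5% and 17.4% of all tested genes. The median log2 fold of the list was -0.10. Notch genes had 3 of 12 above 0, interferon-stimulated genes 13 of 29 and glucocorticoid-responsive genes 12 of 16, without a call in any of them. Chemokine and NF-kappaB feedback genes had 9 of 13 above 0, with Ccl2 at 45.5 and 75.0 against 22.9 and 39.9 (edgeR adjusted p = 0.088).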

How the data were processed

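Droplet-based 3′ single-cell RNA sequencing was made of sorted heart cells. The deposited files hold raw UMI counts per gene and cell barcode for each of the 4 libraries, made by the authors with Cell Ranger 3.1.0 on mm10, per the submitters' processing notes; no deposited barcode had fewer than 500 UMIs. Of 31053 gene IDs, 30934 matched GENCODE M21. Summed counts per library were tested with edgeR 4.0.16 (filterByExpr with a minimum count of 10, TMM scaling, quasi-likelihood test, 2 against 2 libraries). Differences of the diet fold between cell types were tested with limma 3.58.1 on log2 CPM of pericytes minus those of the other type in each library. Both were tested on simulated data, with a fixed spread between libraries and with pericyte levels for both types. Genes high in pericytes but near 0 in the other type were therefore not covered. Sub-clusters used 1000 variable genes, 15 components and Leiden at resolution 0.6. Intervals and limits from a count of 0 (3 counts) cover counting error only.

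Members and gene lists were chosen with earlier results of these data known. Named were up to 12 called genes per direction with non-overlapping groups, where fewer than 5 were called the 6 of smallest p, per list the 5 highest and the 4 of largest fold, the 30 leading genes by level, the 10 most like Rgs5 and fixed markers; Cd3e, Sele, Trac, other markers of other cell types and the called genes beyond the limit were named after their values were seen. Alternatives were size factors from DESeq2's method, DESeq2 1.42.0, limma-voom, no filter, a replicate block, stricter members, each sex, and each library left out. Some withheld genes are not reported here.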

Additional observations from a re-analysis of the deposited data

Results flagged for a closer look

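The diet fold of a few genes differed between pericytes and another cell type by limma's test (difference of log2 folds, pericytes minus the other type). The test set the variance it expected for a gene from the pericyte level alone. A gene high in pericytes but near 0 in the other type could thus be called too easily. How far this affected the calls below was not tested. Against endothelial cells, Apoe (1.03) and Zfp36 (1.18) had the higher fold in pericytes. Zfp36, which destabilises inflammatory mRNAs, was at 81.6 and 107 against 62.5 and 64.7 CPM in pericytes, and at 143 and 156 against 257 and 201 in endothelial cells. The difference was below 0 for Cenpf (-4.07), Hsd11b1 (-1.73), Abca9 (-1.56), Pid1 (-1.25), Irf8 (-0.97), Mt1 (-0.96), Snhg18 (-0.94), Oaf (-0.84) and Gas1 (-0.78). Cenpf rests on the 4 dividing cells. Except for Cenpf and Mt1, these genes were at no more than 10.4 CPM in any endothelial library, so the endothelial side is thin: Pid1, for example, was at 518 and 449 against 481 and 513 in pericytes and at 3.90 and 3.5 against 1.35 and 1.55 in endothelial cells.

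Against fibroblasts, the difference was above 0 for Apoe (0.91), Cspg4 (0.99) and Afap1l2 (1.13), and below 0 for Ednrb (-2.44), Stmn1 (-2.15), Arhgap24 (-1.58), Gnai1 (-1.26), Higd1b (-1.11) and Mylk (-0.65). Cspg4, the pericyte proteoglycan NG2, was at 502 and 614 against 566 and 548 in pericytes and at 1.26 and 1.57 against 2.72 and 3.02 in fibroblasts. Kcnj8, a gene of the member rule, also passed, making 10 calls, and is no result because the rule set its level. Stmn1 was -2.01 in pericytes and -0.56 (edgeR adjusted p = 0.948) without the 4 dividing cells. The fibroblast side is thin for Ednrb and Higd1b, which stood below 1 CPM in each fibroblast library. It is also thin for Cspg4, at no more than 3.02 CPM, and for Mylk, at no more than 5.54 CPM. The Cspg4 log2 fold within pericytes was 0.03. Against smooth muscle, Tmsb4x (-0.85), which encodes an actin-binding peptide, was 1 call among 3510 genes (0.0285%): it was at 3621 and 4494 against 4058 and 4591 in pericytes and at 940 and 1151 against 609 and 599 in smooth muscle.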

How the results depend on the processing

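The count of called genes in pericytes was 36. It was 63 with no filter, 7 by DESeq2, 8 with at least 6 UMIs of the rule's genes, 4 with no UMI of any exclusion gene, 11 in Xist-only members and 5 in members with Y-linked UMIs only. Chosen after seeing the data, leaving out members with shared barcodes gave 14, and leaving out the 4 dividing members gave 13. Without 1 library at a time it was 22 (without high-fibre library 1) to 67 (without high-fibre library 2); the single library left in a group is then assumed to vary like the other group. With the replicate block it was 34, of which 25 were among the 36; the repeat numbers were not taken as pairs, since deviations of equal numbers correlated at only 0.087 over 3757 genes in 2 pairs. The log2 ratio of the pericyte share was 0.22 and turned to -0.011 without cells of shared barcodes; without 1 library at a time it was 0.11 to 0.34. The counts for differences from endothelial cells, fibroblasts and smooth muscle were 11, 10 (with the rule gene Kcnj8) and 1. With the replicate block they were 44, 15 and 11, and without UMIs of exclusion genes 5, 11 and 1. Without 1 library at a time they were 17 to 79, 33 to 152 and 0 to 0.

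Over the 36 called genes and their alternatives, 355 values kept direction and call, 185 kept direction and lost the call, and 4 turned: Cyr61 (-0.39) and Atf5 (0.48) without UMIs of exclusion genes, and Hmgb2 (0.082) and Cks2 (0.78) without the dividing members. The cause was not tested.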
